A study of Mus musculus with 6 samples.

Results

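The 10 CC chemokine ligands described here (Ccl2, Ccl3, Ccl4, Ccl5, Ccl6, Ccl7, Ccl8, Ccl9, Ccl11 and Ccl22) were taken by symbol from a table of 32244 genes, and all 10 had enough counts to be tested. They were measured by bulk mRNA sequencing of epididymal white adipose tissue, a visceral fat depot of male mice. The knockout group (EKO) was Eepd1 knockout C57BL/6J mice and the control group (WT) was wild-type C57BL/6J mice, with 3 libraries each. Both groups had received a high-fat diet, which by the series' design text lasted 3 months. The labels used here state neither the kind of knockout allele, nor age, nor whether a library came from 1 animal or a pool, so the spread behind every p-value is that of these libraries and may be technical.

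CC chemokines are small secreted proteins that bind G protein-coupled receptors on leukocytes and draw those cells along a gradient. They are named for a pair of adjacent cysteines near the start of the mature protein. In obese fat, macrophages gather around dying fat cells, and CC ligands made by macrophages, stromal cells and fat cells are known for their part in bringing in monocytes and other leukocytes.

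The coding sequence around the cysteine pair is shown for 3 of the members that stood apart most and for a neighbour in each chromosomal block, because these lines mark the family and show how far near relatives diverge. Each line gives 30 coding bases, 5′ to 3′ on the gene's own strand, from GENCODE M21 on GRCm38, with the codons of the cysteine pair in capitals.
Ccl4: acttccTGCTGTttctcttacacctcccgg
Ccl6: tcagacTGCTGCttctcttatgccacacag
Ccl9: tcagatTGCTGCctgtcctataactcacgg
Ccl5: actcccTGCTGCtttgcctacctctccctc
Ccl2: ctcaccTGCTGCtactcattcaccagcaag

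The cysteine pair was written with the same codons in 9 of the 10 members, and Ccl4 was the exception. The first cysteine was codon 34 in Ccl2 and Ccl4 and codon 33 in Ccl5. It lay further in, at codon 50 in Ccl6 and codon 57 in Ccl9. In global alignments of the 45 member pairs, the coding sequences of Ccl6 and Ccl9 were the most alike, with 69.3% identical bases over 342 aligned bases, gaps left out. Ccl3 and Ccl4 shared 67.0% over 273 aligned bases. No window of 50 bases in the transcripts of 9 members occurred in another gene. In Ccl9, 59 of 2996 such windows (1.97%) did, and none of the genes sharing them was another CC ligand.

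The members lay in groups on the genome. By the deposited coordinates, which equal GENCODE M21 on GRCm38 for all 10 genes, 9 members were on chromosome 11. Ccl2, Ccl7, Ccl11 and Ccl8 occupied chr11:82035571-82116799, all on the plus strand. Ccl5, Ccl9, Ccl6, Ccl3 and Ccl4 occupied chr11:83525778-83664683, where all but Ccl4 are on the minus strand. A gap of 1409 kb separates these blocks, and Ccl22 stands alone at chr8:94745590-94751699 on the plus strand.

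Library totals ran from 17215072 to 18330206 counts, and 16121 genes were tested. Levels are in CPM (counts scaled to library size after TMM normalisation), listed for replicates 1, 2 and 3 in that order, and 3 counts correspond to 0.154 to 0.192 CPM. Eepd1, the targeted gene, measured 152, 47.7 and 116 CPM in the knockout libraries, against 244, 304 and 192 CPM in wild type. The groups did not overlap, and the edgeR adjusted p was 0.106. The deleted stretch is not stated in the labels, so whether the remaining reads come from outside it was not tested. The 12 fat cell markers examined were all detected, and summed to 5569 to 13461 CPM in EKO and 21563 to 31366 CPM in WT, with 11 of 12 non-overlapping and lower in EKO, against 17.7% of all genes. WT replicate 2 stood apart from the other libraries, with 1452 CPM summed over 5 testis transcripts against at most 74.2 elsewhere.

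Of the 10 ligands, Ccl3, Ccl4, Ccl6 and Ccl9 were higher without overlap between the genotypes, by 2.57-fold to 6.01-fold. The other 6 overlapped between genotypes. Non-overlapping higher values were found in 25.1% of all genes tested, so 4 of 10 is to be read against that share. The edgeR quasi-likelihood test called 0 of the 10 at an adjusted p under 0.05, and it called 0% of all genes higher and 0% lower. At an unadjusted p under 0.05 it picked 4 members, all higher, against 18.9% of all genes higher and 13.8% lower. DESeq2 called the same 4 (adjusted p under 0.05), where 13.0% of genes were called higher. The authors' deposited table also marks these 4 as significantly up, against 5.09% of its genes marked up and 5.04% marked down. Without WT replicate 2, edgeR called 0 of the 10 while it called 1.96% of genes higher and 0.727% lower. By their means 9 members were higher in EKO, with a median log2 difference of 0.83 over the members against 0.02 over all genes tested.

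**Figure D1:**
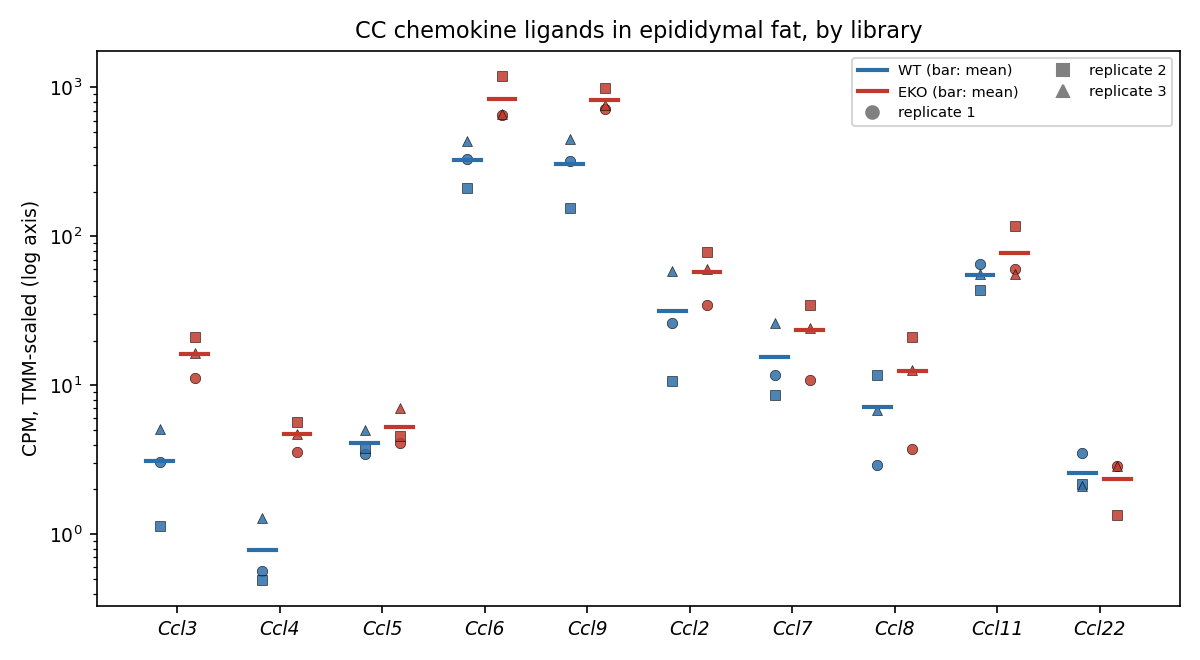
TMM-scaled CPM (log axis) of each ligand in each library, with WT in blue, EKO in red, symbols for the replicate number and a bar at the mean of 3 libraries. For Ccl3, Ccl4, Ccl6 and Ccl9 the red points all lie above the blue ones, and for the other 6 ligands the colours overlap.

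Ccl3 and Ccl4 encode the macrophage inflammatory proteins 1α and 1β, which draw monocytes and T cells, and Ccl3 acts on the receptor Ccr1. Ccl3 measured 11.3, 21.2 and 16.4 CPM in the knockout libraries, against 3.05, 1.14 and 5.08 CPM in wild type. The lowest EKO library was thus above the highest WT library. The means were 16.3 ± 4.98 and 3.09 ± 1.97 CPM (SD, n = 3 each), a 5.27-fold difference, with a log2 difference of 2.39 ± 0.55 (SE) and an edgeR adjusted p of 0.0639. In the authors' deposited table its log2 fold change is 2.35 with an adjusted p of 0.000977.

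Ccl4 rested on few reads. It had 61, 89 and 83 counts in the knockout libraries and 10, 9 and 25 in the wild-type libraries. These correspond to 3.60, 5.71 and 4.75 CPM in EKO and 0.565, 0.490 and 1.28 CPM in WT. Every EKO library was again above every WT library. The means were 4.68 ± 1.06 and 0.780 ± 0.438 CPM (SD, n = 3 each), the 6.01-fold difference being the largest ratio of the 10. The log2 difference was 2.57 ± 0.45 (SE), with an edgeR adjusted p of 0.0628, the lowest of the 10 members. Other genes shared this adjusted value at different unadjusted p, so it does not rank them. The unadjusted edgeR p was 0.00103 for Ccl4, and 0.00165 and 0.00202 for Ccl24 and Cd209a, which had the same adjusted p. Leaving out each library in turn kept the log2 difference between 1.94 and 2.96 for Ccl3 and between 2.27 and 3.14 for Ccl4. The edgeR adjusted p then ran from 0.0510 to 0.229 for Ccl3 and from 0.0589 to 0.229 for Ccl4.

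Ccl6 and Ccl9 are rodent ligands of Ccr1 made largely by myeloid cells, and they supplied most of the reads of the set. Together they made up 88.5% to 91.3% of the members' CPM in the EKO libraries and 81.7% to 84.8% in the WT libraries. Ccl6 measured 656, 1195 and 664 CPM in the knockout libraries, against 329, 213 and 435 CPM in wild type. The means of 838 ± 309 and 326 ± 111 CPM (SD, n = 3 each) differed 2.57-fold, with a log2 difference of 1.36 ± 0.36 (SE) and an edgeR adjusted p of 0.0695. EKO replicate 2 was far above the other EKO libraries for this gene, and without it the log2 difference was 0.99.

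Ccl9 varied less within EKO. It measured 719, 991 and 769 CPM in the knockout libraries, against 322, 154 and 449.6 CPM in wild type. The means of 826 ± 145 and 309 ± 148 CPM (SD, n = 3 each) differed 2.68-fold, with a log2 difference of 1.42 ± 0.39 (SE) and an edgeR adjusted p of 0.0724. Leaving out each library in turn, that difference ran from 1.04 without WT replicate 2 to 1.80 without WT replicate 3. Ccl6 and Ccl9 stayed close to each other across libraries, the ratio of Ccl6 to Ccl9 CPM lying between 0.864 and 1.38 in all 6. A non-coding transcript annotated on the opposite strand across Ccl6, E230016K23Rik, had 154 counts in all against 59558 for Ccl6, and whether counting used the strand is not stated in the labels.

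Ccl5, also known as RANTES and best known as a T cell product that acts on Ccr1, differed little. It measured 4.13, 4.55 and 7.03 CPM in the knockout libraries, against 3.45, 3.81 and 4.98 CPM in wild type. EKO replicate 3 and WT replicate 3 were the highest of their groups and the groups overlapped. The log2 difference was 0.36 ± 0.30 (SE), with an edgeR adjusted p of 0.427.

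Ccl2 and Ccl7 are the monocyte chemoattractant proteins 1 and 3, ligands of Ccr2, the receptor by which monocytes leave the blood. Ccl2 measured 34.4, 78.6 and 60.7 CPM in the knockout libraries, against 26.2, 10.7 and 58.4 CPM in wild type. WT replicate 3 reached the EKO range and EKO replicate 1 lay within the WT range. The means were 57.9 ± 22.2 and 31.8 ± 24.4 CPM (SD, n = 3 each), with a log2 difference of 0.86 ± 0.61 (SE) and an edgeR adjusted p of 0.352. Without WT replicate 3 the log2 difference was 1.66 (adjusted p = 0.140, edgeR), and without WT replicate 2 it was 0.40. Ccl7 followed a similar order, with 10.9, 34.9 and 24.3 CPM in the knockout libraries against 11.8, 8.66 and 26.4 CPM in wild type. Its groups overlapped, with a log2 difference of 0.58 ± 0.55 (SE) and an edgeR adjusted p of 0.487. That difference was 1.20 without WT replicate 3 and 0.15 without EKO replicate 2.

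Ccl8, which in mice acts on Ccr8, and Ccl11, the eosinophil attractant eotaxin that acts on Ccr3, complete this chromosomal block. Ccl8 measured 3.72, 21.0 and 12.8 CPM in the knockout libraries, against 2.94, 11.7 and 6.83 CPM in wild type. The range within each genotype was wider than the difference between the means of 12.5 ± 8.66 and 7.16 ± 4.39 CPM (SD, n = 3 each), with a log2 difference of 0.80 ± 0.72 (SE) and an edgeR adjusted p of 0.459. Without EKO replicate 2 it was 0.20 and without WT replicate 2 it was 1.29. Ccl11 measured 60.2, 117 and 55.8 CPM in the knockout libraries, against 65.3, 43.3 and 56.2 CPM in wild type. Its log2 difference of 0.50 ± 0.32 (SE, edgeR adjusted p = 0.310) came down to 0.05 without EKO replicate 2.

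Ccl22, a Ccr4 ligand made by dendritic cells and macrophages that attracts regulatory and type 2 helper T cells, was the single member with a lower mean in EKO. It measured 2.89, 1.35 and 2.86 CPM in the knockout libraries, against 3.50, 2.18 and 2.10 CPM in wild type. The groups overlapped, with a log2 difference of -0.13 ± 0.40 (SE) and an edgeR adjusted p of 0.834, and the sign turned when EKO replicate 2 or WT replicate 1 was left out (0.12 and 0.13).

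Along chromosome 11, the 4 members with non-overlapping groups all belonged to the block of Ccl5, Ccl9, Ccl6, Ccl3 and Ccl4. In that block the log2 differences ran from 0.36 for Ccl5 to 2.57 for Ccl4, and the non-coding E230016K23Rik, which spans Ccl6, had a log2 difference of -0.0030 ± 0.36 (SE). In the block of Ccl2, Ccl7, Ccl11 and Ccl8 the members ran from 0.50 to 0.86. Ccl12, another Ccr2 ligand of mice that lies between Ccl11 and Ccl8, differed by 0.13 ± 0.65 (SE) at 2.00 ± 1.13 against 1.81 ± 1.12 CPM (SD, n = 3 each). The difference between the blocks was not tested. Coding identity was 60.8% to 67.0% within the Ccl2 block, 57.2% to 69.3% within the other block and 48.6% to 62.1% between them.

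**Figure D2:**
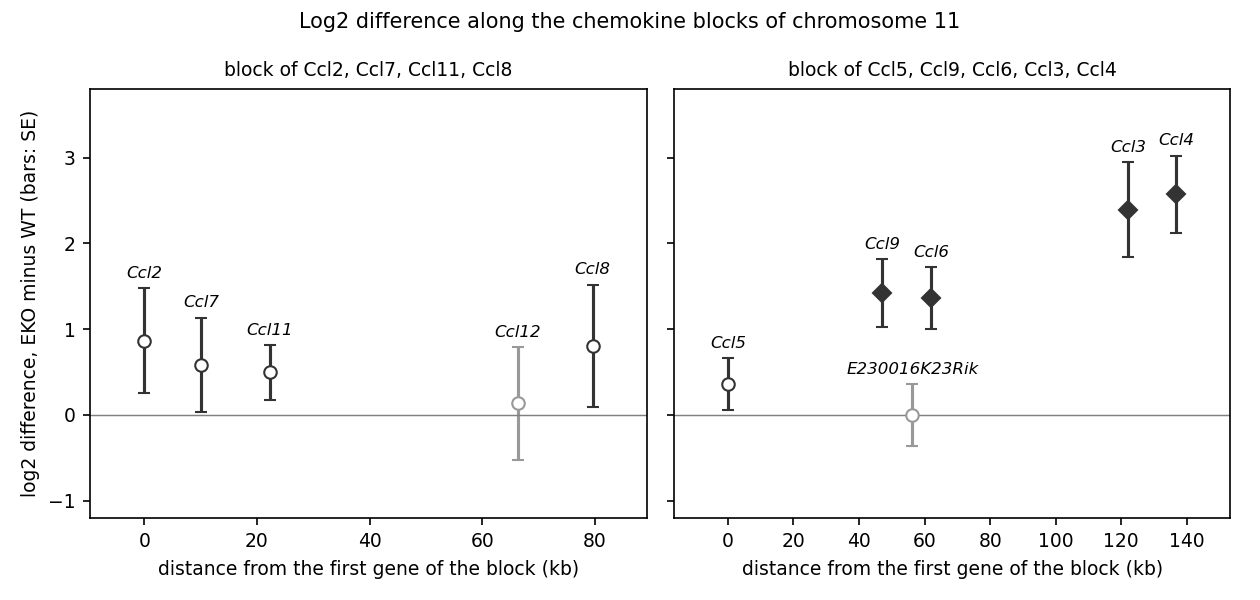
Log2 difference (EKO minus WT, bars SE) of every tested gene inside each block against the distance in kb from the block's first gene, with filled diamonds for genes whose groups did not overlap, open circles for the rest and grey for genes outside the set of 10. Ccl9, Ccl6, Ccl3 and Ccl4 lie between 1.36 and 2.57, and the Ccl2 block between 0.13 and 0.86.

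Set against transcript length, the levels kept a similar order in both genotypes. Per kb of exon (GENCODE M21), EKO means were 467 CPM per kb for Ccl6, 271 for Ccl9, 71.7 for Ccl11 and 50.9 for Ccl2. Ccl7, Ccl8 and Ccl3 followed at 29.2, 24.5 and 21.3 CPM per kb, and Ccl4, Ccl5 and Ccl22 at 7.10, 5.46 and 1.02. Among neighbours in that order, Ccl11 to Ccl3 overlapped in their library ranges, as did Ccl4 and Ccl5, while Ccl6, Ccl9 and Ccl11 were separate from one another. In WT the order began with Ccl6 and Ccl9 at 181 and 101 CPM per kb, and Ccl5 at 4.25 stood just above Ccl3 at 4.04 with overlapping ranges. WT neighbours overlapped in their library ranges at every step except between Ccl8 and Ccl5. These ranges run over libraries, and the order per kb within each single library was not compared.

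The libraries themselves were ordered alike across members. EKO replicate 2 was the highest of the 6 libraries for 8 of the 10 ligands, and WT replicate 2 the lowest for 7. The summed level of the 12 macrophage markers followed that order, with 10096, 15203 and 10589 CPM in the knockout libraries and 4643, 1777 and 5128 CPM in wild type. All 12 markers were higher in EKO without overlap, against 25.1% of all genes, with a median log2 difference of 1.62, and none was at 0. In bulk tissue, a change in the number of cells of a type and a change in RNA per cell cannot be told apart. Monocyte markers summed to 96.7 to 196 CPM in EKO and 44.1 to 76.5 CPM in WT, with 2 of 5 non-overlapping and higher (Vcan and Plac8). Fibroblast and progenitor markers summed to 6924 to 9967 CPM in EKO and 3663 to 5145 CPM in WT, with 4 of 7 non-overlapping and higher, against 25.1% of all genes. Most of that sum was the collagens Col3a1 and Col1a1, which averaged 4891 and 1350.0 in EKO against 1905 and 731 CPM in WT, while Dcn and Pi16 stood at 1.01 and 1.08 times and Dpp4 at 0.631 times their WT means with overlap. The part of these cell types in the ligand differences was not tested.

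The levels were also divided by the summed macrophage markers. Because that sum was itself 3.11-fold higher in EKO, most genes lie lower on this scale: 86.0% of all genes tested were lower in EKO without overlap, 0.589% were higher, and the median ratio of EKO to WT was 0.268. Ccl3 stood at 1.12, 1.40 and 1.55 CPM per 1000 CPM of macrophage markers in the knockout libraries, and at 0.657, 0.644 and 0.991 in wild type. It was thus still higher in every EKO library, 1.77-fold by the means. Ccl4 was 1.82-fold higher on this scale, at 0.393 ± 0.0485 against 0.216 ± 0.0826 per 1000 (SD, n = 3 each), again without overlap. Ccl6 and Ccl9, in contrast, stood at 0.749 and 0.857 times their WT means with overlapping groups. Single markers differed between 1.66-fold (Mertk) and 4.34-fold (Msr1) in CPM, and 9 of the 12 stood above the ratio of Ccl6 and 8 above that of Ccl9, so the order depends on the marker used. Most of the sum came from Lyz2, Lgals3 and Ctss, which averaged 2503, 2115 and 1039 CPM over the 6 libraries. Without Lyz2 and Ctss the ratios of Ccl3, Ccl4, Ccl6 and Ccl9 were 1.79, 1.82, 0.750 and 0.852. A sum without Lgals3 was not computed.

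Ccl5, Ccl7, Ccl11 and Ccl22 were lower in EKO without overlap on this scale, as were most genes, at 0.356, 0.452, 0.383 and 0.270 times their WT means. Ccl2 stood at 0.621 times its WT mean with overlap. Ccl8 stood at 0.346 times its WT mean with overlap, and at 1.00 times without WT replicate 2. These ratios carry no test.

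**Figure D3:**
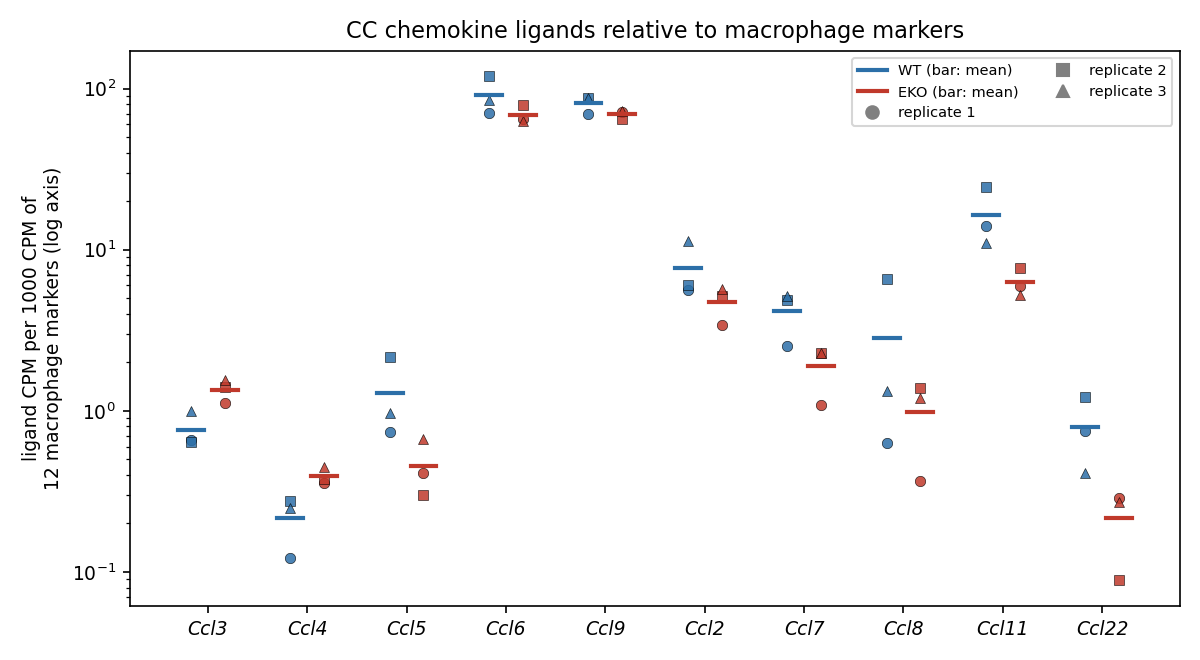
CPM of each ligand per 1000 CPM of the 12 summed macrophage markers (log axis) in each library, with WT in blue, EKO in red, symbols for the replicate number and a bar at the mean. Ccl3 and Ccl4 remain higher in EKO, Ccl6 and Ccl9 overlap, and Ccl5, Ccl7, Ccl11 and Ccl22 lie lower in EKO, as do 86.0% of all genes tested on this scale.

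The receptors of these ligands differed among themselves. Ccr1, the receptor of Ccl3, Ccl6 and Ccl9, measured 27.4, 90.8 and 38.8 CPM in the knockout libraries, against 11.4, 11.5 and 25.7 CPM in wild type. The groups did not overlap, with a log2 difference of 1.69 ± 0.54 (SE) and an edgeR adjusted p of 0.0948. Ccr2, the receptor of Ccl2, Ccl7 and Ccl12, overlapped at 53.0 ± 17.1 in EKO against 56.0 ± 7.92 CPM in WT (log2 -0.08 ± 0.24 SE, edgeR adjusted p = 0.827).

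Ccr3, the eotaxin receptor of eosinophils, averaged 6.24 ± 3.71 in EKO against 1.58 ± 0.991 CPM in WT without overlap (log2 1.97 ± 0.69 SE, edgeR adjusted p = 0.110). Ccrl2, an atypical receptor that binds chemerin, was also higher without overlap, at 22.6 ± 2.58 against 10.8 ± 3.36 CPM (log2 1.06 ± 0.25 SE, edgeR adjusted p = 0.0650). Ackr4, a scavenging receptor for homeostatic chemokines, averaged 1.68 ± 1.08 in EKO against 5.14 ± 2.50 CPM in WT with overlap. Of 13 CC and atypical receptors examined, 9 were tested. Of those 9, 4 had higher and 5 lower means, and 3 did not overlap, all higher, against 25.1% of all genes. Their median log2 difference was -0.08, and edgeR called 0 at an adjusted p under 0.05 and 4 at an unadjusted p under 0.05 (3 higher, 1 lower). Ccr8 and Ccr4, receptors of Ccl8 and Ccl22, were too low to test. Ccr8 had 1, 0 and 0 counts in EKO and 4, 7 and 6 in WT, lower without overlap. Ccr4 had 4, 0 and 7 counts in EKO and 3, 11 and 4 in WT.

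Among the CC ligands outside the set, Ccl24 was the one with non-overlapping groups. Ccl24 is eotaxin 2, a Ccr3 ligand made by alternatively activated macrophages. It measured 2.06, 1.22 and 2.23 CPM in the knockout libraries, against 6.90, 8.01 and 4.62 CPM in wild type. The log2 difference was -1.82 ± 0.35 (SE), with an edgeR adjusted p of 0.0628, and the authors' deposited table gives a log2 fold change of -1.85 with an adjusted p of 0.000406. Of 10 further ligands found in the table, 5 were tested, and lower values without overlap, as for Ccl24, were found in 17.7% of all genes. Ccl25, Ccl27a and Ccl28 overlapped, Ccl27a being uncertain because near-identical copies exist, and the 5 tested had a median log2 difference of -0.29. The 5 that were too low to test included Ccl17, the other Ccr4 ligand, with 0, 1 and 5 counts in EKO and 3, 9 and 4 in WT.

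**Figure D4:**
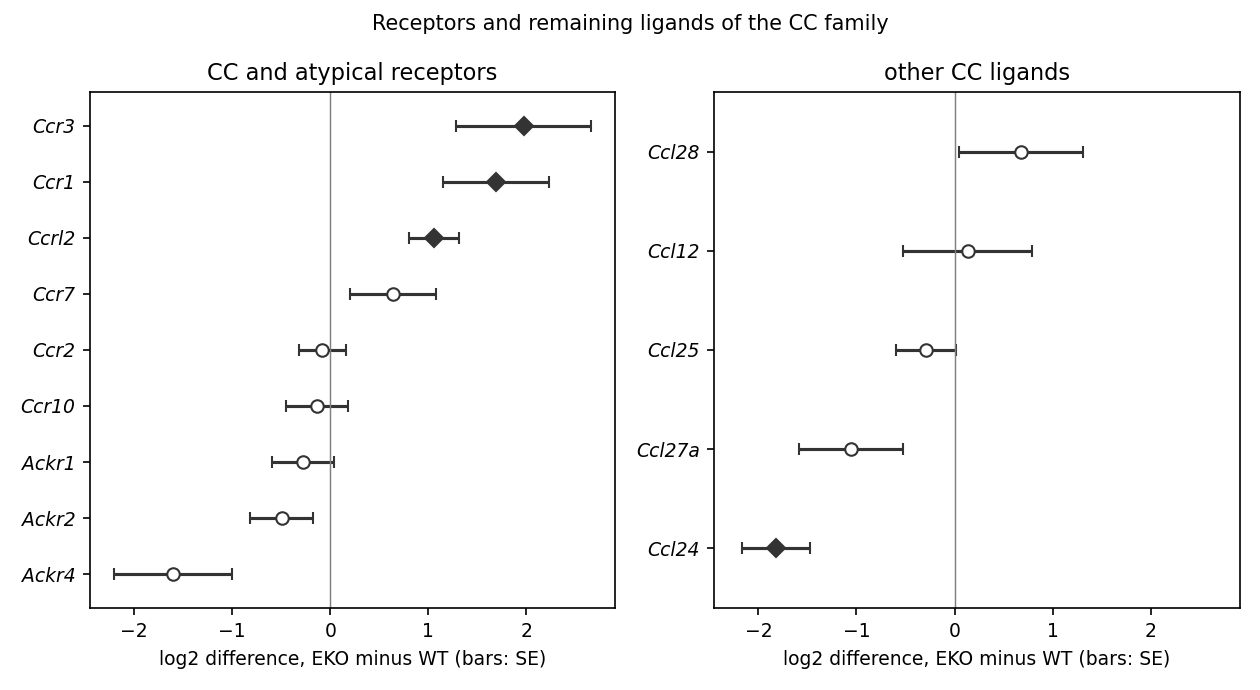
Log2 difference (EKO minus WT, bars SE) of the tested CC and atypical receptors and of the tested CC ligands outside the set of 10, with filled diamonds where the groups did not overlap. Ccr3, Ccr1 and Ccrl2 are higher in EKO at 1.06 to 1.97, Ccr2 is at -0.08, and Ccl24 is lower at -1.82.

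Genes that induce CC ligands differed less than Ccl3 and Ccl4. CC ligand genes are classical targets of NF-κB, the transcription factor family activated by tumour necrosis factor, interleukin 1 and toll-like receptors. Of 15 tested genes of NF-κB signalling and inflammatory cytokines, 13 had higher means in EKO (median log2 0.36), and 4 did not overlap, all higher, a share near the 25.1% of all genes. Rel, an NF-κB subunit of leukocytes, averaged 30.7 ± 0.986 in EKO against 18.0 ± 5.82 CPM in WT (log2 0.77 ± 0.26 SE, edgeR adjusted p = 0.101). Nfkbia, the NF-κB inhibitor that is itself a target, was at 68.5 ± 18.7 and 70.2 ± 5.46 CPM with overlap. Tnf averaged 3.66 ± 1.37 in EKO against 1.84 ± 1.12 CPM in WT with overlap (log2 0.99 ± 0.59 SE, edgeR adjusted p = 0.284).

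Interleukins 4 and 13, which act through Stat6, induce Ccl11, Ccl22 and Ccl24 in many cells. Il13ra1, a subunit of their shared receptor, averaged 33.1 ± 9.64 in EKO against 17.6 ± 2.55 CPM in WT without overlap (log2 0.91 ± 0.24 SE, edgeR adjusted p = 0.0676), and Stat6 240.2 ± 18.6 and 179.8 ± 35.6 CPM, also without overlap. Il4 itself was at 2.52 ± 0.370 and 1.90 ± 0.454 CPM with overlap, and Il13 was too low to test. Il4ra, Il33 and Tslp also overlapped, Il4ra with a log2 difference of 0.82 ± 0.45 (SE, edgeR adjusted p = 0.249). Of 6 tested genes of this list 5 had higher means, with a median log2 difference of 0.48. Non-overlapping higher values were found in 2 of the 6, against 25.1% of all genes. In either inducer list edgeR called 0 at an adjusted p under 0.05 (4 and 1 at an unadjusted p under 0.05, all higher, where 18.9% of all genes were).

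Promoter sequence from RefSeq on GRCm38.p6 was at hand for Ccl3, Ccl6, Ccl8, Ccl9 and Ccl22. It was searched on both strands, from 250 bases before to 50 bases after the start, for the NF-κB consensus, for the AP-1 motif TGANTCA and for a STAT motif of TTC and GAA with 4 bases between them. The NF-κB and AP-1 motifs were found in the window of Ccl9, no motif was found in the other 4 and the STAT motif in none of the 5, while 4.51%, 7.81% and 6.95% of all 32851 promoter windows held the respective motif. Ccl9 and Ccl6, whose levels stayed close in every library, are printed for comparison as the 250 bases before the start on the minus strand, at chr11:83578637-83578886 and chr11:83593088-83593337, with motif matches in capitals.
Ccl9: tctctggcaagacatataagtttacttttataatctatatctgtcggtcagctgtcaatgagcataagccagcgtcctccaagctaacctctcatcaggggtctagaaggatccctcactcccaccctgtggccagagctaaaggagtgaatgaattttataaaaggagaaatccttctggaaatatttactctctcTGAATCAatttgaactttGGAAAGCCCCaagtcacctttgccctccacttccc
Ccl6: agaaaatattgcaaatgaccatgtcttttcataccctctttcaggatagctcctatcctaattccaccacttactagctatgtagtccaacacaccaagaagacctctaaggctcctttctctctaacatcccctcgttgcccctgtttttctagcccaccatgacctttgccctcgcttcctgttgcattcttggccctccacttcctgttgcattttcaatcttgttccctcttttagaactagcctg

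In Ccl9 the AP-1 match lay 53 to 47 bases and the NF-κB match 35 to 26 bases before the start, and the matches do not overlap each other. The AP-1 pattern as searched allowed any base at its centre, which was A in this match. A match describes letters only, and binding was not measured.

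By the root-mean-square difference of log2 CPM profiles over the 6 libraries, each centred on its own mean, the nearest fellow member of Ccl6 was Ccl9 (0.234) and that of Ccl3 was Ccl4 (0.355). Ccl2 was nearest to Ccl7 among the members (0.407). Over all genes tested, the nearest to Ccl2 was Tnf (0.236), followed by Sh2d1b1 and Rab20. The 3 nearest to Ccl3 were Gpr176, Flnc and Havcr2 (0.154 to 0.161), and to Ccl9 they were Slc38a1, Ptpn6 and Fhl3 (0.024 to 0.056). The 3 nearest to Ccl6 were Adamtsl5, Ncs1 and Ftl1 (0.053 to 0.078). With 6 libraries and 16121 genes, close profiles describe these libraries alone.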

How the data were processed

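Bulk mRNA was measured in 6 libraries. TRIzol extraction and an mRNA-seq library kit were used, per the labels' protocols. The submitters' processing notes name GRCm38 as the build, while the aligner, the counter and any strand setting were not given in the sources used here. The authors deposited 1 table with raw counts per gene and library, per the file headers. It also holds the authors' mean signal over the 6 libraries, the linear ratio between genotypes (fold change), the log2 of that ratio, and p-values with adjusted p-values. The deposited mean signal equals counts over median-of-ratios size factors (median relative difference 2.79e-06). The 1637 genes the authors' deposited table marks as significant are those with an adjusted p under 0.05 and a log2 change past 1.

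Counts were tested with the edgeR 4.0.16 quasi-likelihood F test (R 4.3.3) on genes kept by filterByExpr, scaled by TMM, in a model of genotype alone, with Benjamini-Hochberg adjustment over all 16121 genes. Standard errors are the log2 difference divided by the square root of F. The scripts were tested on simulated data in which 200 genes changed by known folds. No library was a copy of another, the lowest chi-square per degree of freedom between any 2 being 22.3. Lengths and coding sequences came from GENCODE M21, promoters from RefSeq (GRCm38.p6), and alignments from Biopython 1.88. Where a symbol had several rows, the row on a named chromosome was used.

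Alternatives were other scalings and count filters, DESeq2 1.42.0, limma-voom (limma 3.58.1) with and without sample quality weights, a replicate block and each library left out. Those planned for normalized values were not needed. The members and lists were chosen with earlier results of these data known. Named genes are Eepd1, the members, the genes of those lists and, for each member, the 3 genes with the nearest profile. E230016K23Rik was named after its values were seen, as it lies inside a block. A receptor of the fixed list and a coding stretch of a member are not reported here.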

Additional observations from a re-analysis of the deposited data

How the results depend on the processing

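edgeR called 0 genes and 0 of the 10 ligands with all 6 libraries, and the same with the other scalings, both other count filters and limma-voom. DESeq2 called 3713 genes, 1891 of them higher in EKO. With sample quality weights, limma-voom called 4101 of 16121 genes, 2387 of them higher. Each called 4 ligands, all higher (Ccl3, Ccl4, Ccl6 and Ccl9). Leaving out each library in turn, edgeR called 0 to 443 genes, the 443 without WT replicate 2, and 0 ligands. Non-overlapping higher ligands numbered 4 under every scaling, against 25.1% of all genes in the main scaling. With a library left out they numbered 4 to 6, where fewer libraries make overlap less likely. The share of all genes without overlap was not computed for those fits or for the other scalings. The log2 difference of Ccl22 ran from -0.29 to 0.13 with a library left out, being 0.12 without EKO replicate 2 and 0.13 without WT replicate 1, and no other ligand changed sign under any alternative run. The cause of these differences was not tested. With the replicate number as a block, edgeR called 0 genes and 0 ligands. The numbers were not taken to pair libraries, since 1 of 3 same-numbered pairs had deviations correlated above 0.1 and 1 of 3 EKO libraries matched its own number best. Ccl4 and Ccl22 rest on few reads, which limits their precision. Without the 50 bases after the start, 3.90%, 6.75% and 5.85% of promoters held the NF-κB, AP-1 and STAT motifs.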

Other observations

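T and NK cell markers summed to 11.4 to 21.7 CPM in EKO and 10.5 to 14.0 CPM in WT. Of the 10 tested, 2 were higher (Cd3e and Cd4) and 1 lower (Gzma) without overlap, against 25.1% and 17.7% of all genes. The rest of this list overlapped. Cd4, the coreceptor of helper T cells, stood at 3.17 ± 1.03 in EKO against 1.70 ± 0.608 CPM in WT without overlap, while Gzma, a cytotoxic granule protease, averaged 0.512 ± 0.349 and 1.90 ± 0.358 CPM (SD, n = 3 each), lower without overlap. Neither passed in edgeR (adjusted p = 0.169 and 0.0773). Eosinophil markers summed to 11.8 to 19.9 CPM in EKO and 20.5 to 35.0 CPM in WT, but without Ear2, which made up most of the sum, to 2.69 to 3.89 and 1.85 to 2.00 CPM, a sum chosen after seeing the data. Siglecf, the sialic acid receptor of mouse eosinophils, was higher in EKO at 1.72 ± 0.163 against 0.702 ± 0.0430 CPM, and Ear2, an eosinophil-associated ribonuclease also expressed in macrophages, lower at 13.2 ± 4.06 against 26.4 ± 7.31 CPM, both without overlap (edgeR adjusted p = 0.0628 and 0.0872). Siglecf rested on few reads, with 30, 29 and 27 counts in EKO and 13, 12 and 14 in WT. Prg2, Il5ra and Ear1 overlapped, at 0.966, 1.27 and 0.964 times their WT means. Of 4 tested eosinophil markers, 1 was higher and 1 lower without overlap, against 25.1% and 17.7% of all genes.

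Dendritic cell markers summed to 37.1 to 46.2 CPM in EKO and 50.9 to 57.8 CPM in WT, with Zbtb46 the largest contributor at 18.4 ± 2.76 against 24.4 ± 2.33 CPM. Of the 7 tested, 1 was higher and 2 lower without overlap, against 25.1% and 17.7% of all genes. Cd209a, a lectin of monocyte-derived dendritic cells, was lower in EKO at 3.36 ± 0.0415 against 7.85 ± 1.71 CPM without overlap (edgeR adjusted p = 0.0628), while Flt3, the receptor of a dendritic cell growth factor, was higher at 4.66 ± 0.843 against 2.90 ± 0.556 CPM without overlap (edgeR adjusted p = 0.137). Mast cell markers, by contrast, summed to 148 to 826 CPM in EKO and 54.0 to 75.2 CPM in WT, with 8 of 9 non-overlapping and higher, against 25.1% of all genes. B cell markers overlapped, with EKO replicate 3 the highest library at 67.8 CPM.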
